A study of Mus musculus with 6 samples.

Results

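The genes described here are 38 globin, heme synthesis and red cell genes, measured by RNA sequencing of the mouse pancreas before birth, at 13.5 and 15.5 days post coitum (dpc). They were chosen by name for what their products do in red cells, as 7 globin genes, 9 genes of heme synthesis and iron supply, 9 of the red cell membrane and its skeleton, 8 erythroid regulators including the erythropoietin receptor, and 5 other red cell genes. Their symbols were matched to the Ensembl identifiers of the count table, where 37 of the 38 were found among 37224 genes, and *Ahsp* was not analysed here. Both stages are whole pancreata of wild type (wt) C57/Bl6J mice, with 3 samples each, and every sample pools the organs of up to 3 embryos. No sample holds another genotype or a treatment, and the stage of the embryo is the variable that separates the groups. The comparison asks how the transcripts of these genes in the whole pancreas changed between the stages.

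Hemoglobin is built from alpha-type and beta-type globin chains that each hold a heme group. In the mouse, the primitive red cells of the yolk sac express the embryonic genes *Hbb-y*, *Hbb-bh1* and *Hba-x* and later also adult globins, and the definitive red cells that the fetal liver releases into the blood express the adult genes *Hbb-bs*, *Hbb-bt*, *Hba-a1* and *Hba-a2*. Maturing red cells make heme in bulk, build a membrane skeleton of spectrin, ankyrin and band proteins, and then stop transcription as the nucleus is lost or condensed. In a whole organ, fewer red cells and less RNA of a gene per red cell cannot be told apart, and this holds for every gene below. Some listed genes, such as most heme enzymes and *Bcl11a*, are also active in other cells. A change in the number or RNA of those cells cannot be told apart from these readings either.

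The RNA was poly(A) selected, and the deposited values are read counts per gene, with 10546028 to 16389237 counts per sample. They were scaled with the TMM method of edgeR and are given as normalised counts. The stages were compared with edgeR's quasi-likelihood test over 15578 genes with enough counts for its default filter, with Benjamini-Hochberg adjustment over all of them, and a gene was called at an adjusted p at or below 0.05. Log2 fold changes are 15.5 over 13.5 dpc and are given with their standard error (SE). Over all genes tested, the log2 fold change had a median of -0.01, but one of -0.22 when counts were scaled by library size only, so small changes below are relative to the scaling. All 8 markers of epithelium, among them *Cdh1* and *Pdx1*, passed the filter, and their summed level was 24903 to 26265 normalised counts at 13.5 dpc and 34114 to 45036 at 15.5 dpc.

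Of the 38 genes, 35 passed the filter. Among these, 12 were called, 3 higher and 9 lower at 15.5 dpc, and 23 were not. Across all genes tested 22.3% were called, 11.6% as higher and 10.7% as lower. The values of the 3 samples of one stage did not overlap those of the other for 7 of the 35 genes with 15.5 dpc above and for 13 with 15.5 dpc below, where 22.8% and 23.6% of all genes tested stood apart in these directions. The median log2 fold change of the 35 genes was -0.13. The study's thresholds were adjusted p at or below 0.1, over 100 normalised counts in either stage, and fold below 0.6 or above 1.6. The study set them on DESeq2 results and considered mRNAs only, whereas here they were put on the edgeR results of all genes tested. By these, 4 of the 38 genes were higher and 4 lower, where 9.88% of all genes tested passed, 6.3% as higher and 3.58% as lower. These were *Hbb-bs*, *Hbb-bt*, *Alas2* and *Cpox*, and *Hbb-y*, *Hbb-bh1*, *Hba-x* and *Epb42*. On DESeq2 results *Hba-a1* (log2 fold change 0.70, DESeq2 adjusted p = 0.0873) and *Hba-a2* (0.85, DESeq2 adjusted p = 0.0463) passed as higher too. The classes differed in their values, with medians of -3.73 for the embryonic globins, 0.91 for the adult globins, 0.25 for heme synthesis and iron supply, -0.76 for the membrane and skeleton, -0.27 for the regulators and -0.05 for the other red cell genes. Without replicate 1 at 15.5 dpc the adult globin median was 0.41, and without replicate 2 at 15.5 dpc that of the regulators was -0.07.

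**Figure D1:**
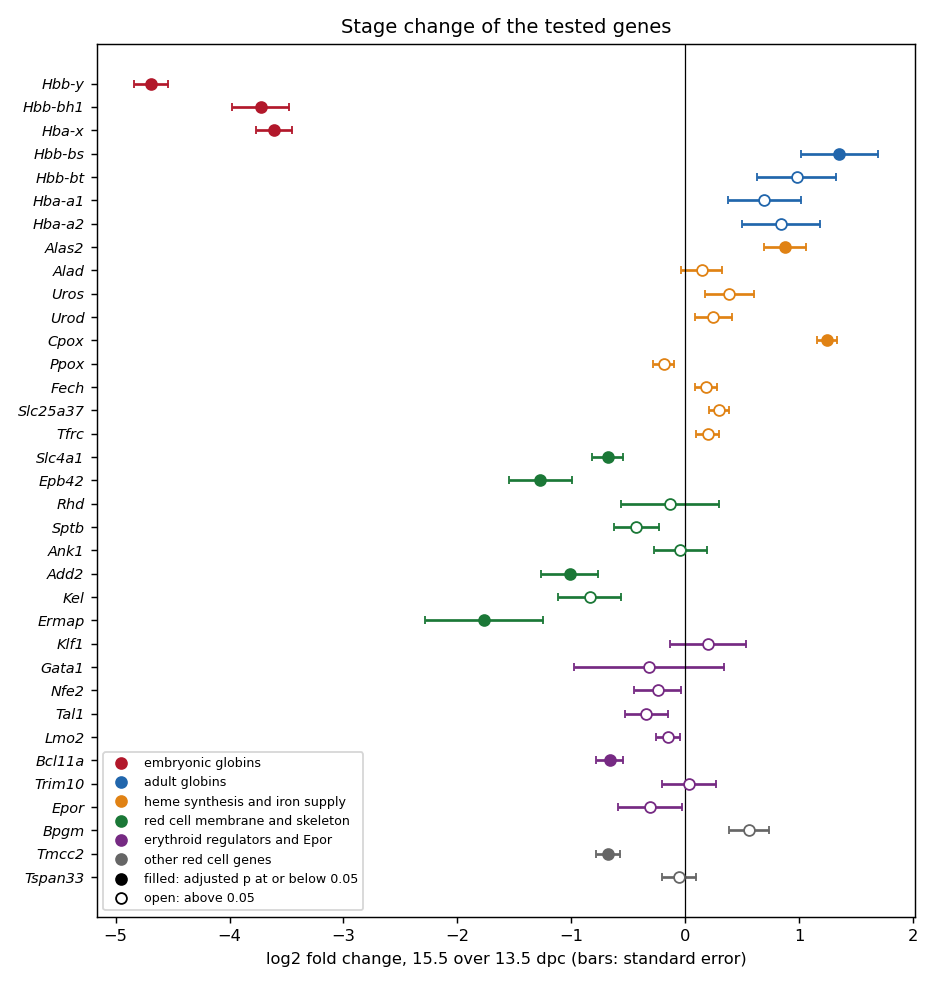
Log2 fold change of the 35 tested genes between the stages (x axis, 15.5 over 13.5 dpc) with SE bars, by class, where filled points were called by edgeR and open points were not. The 3 embryonic globins lie between -4.69 and -3.61, and every other gene lies between -1.76 and 1.35.

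The embryonic globins fell at 15.5 dpc by far more than any other listed gene. *Hbb-y*, the epsilon-type chain of the embryonic hemoglobins (ENSMUSG00000052187, chr7:103851745-103853240, minus strand, mm10), had 11502, 10129 and 9255 normalised counts in replicates 1, 2 and 3 at 13.5 dpc and 425, 345 and 431 at 15.5 dpc. The highest sample at 15.5 dpc lay far below the lowest at 13.5 dpc, and the level was 25.8-fold lower at 15.5 dpc (log2 fold change -4.69, SE 0.15, edgeR adjusted p = 5.83e-05). *Hbb-bh1*, the other embryonic beta-type gene (chr7:103841636-103843164), had 125, 119 and 113 normalised counts at 13.5 dpc and 13.8, 7.16 and 6.30 at 15.5 dpc. The stages again did not overlap, at a log2 fold change of -3.73 (SE 0.25, edgeR adjusted p = 0.00038), but the 15.5 dpc values rest on only 10, 7 and 5 raw counts. *Hba-x*, the zeta chain and the embryonic alpha-type gene (chr11:32276400-32278116, plus strand), had 2225, 1711 and 1819 normalised counts at 13.5 dpc and 154, 137 and 181 at 15.5 dpc. It was 12.2-fold lower at the later stage with no overlap (log2 fold change -3.61, SE 0.16, edgeR adjusted p = 0.000257). Together the 3 genes took 0.118%, 0.102% and 0.0950% of all counts at 13.5 dpc and 0.00396%, 0.00383% and 0.00466% at 15.5 dpc.

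The adult globins lay higher at 15.5 dpc on average, but with a wide spread among the 15.5 dpc samples, and 1 of the 4 genes was called. *Hbb-bs*, a beta chain of adult hemoglobin (chr7:103826534-103828096, minus strand), had 4572, 5143 and 4311 normalised counts at 13.5 dpc and 18522, 6465 and 10846 at 15.5 dpc. The lowest 15.5 dpc sample lay above the highest 13.5 dpc sample, and *Hbb-bs* rose 2.55-fold (log2 fold change 1.35, SE 0.34, edgeR adjusted p = 0.0293). *Hbb-bt*, the neighbouring adult beta gene (chr7:103812524-103813996), had 2448, 2468 and 2026 normalised counts at 13.5 dpc and 7173, 2454 and 4062 at 15.5 dpc. Replicate 2 at 15.5 dpc fell within the 13.5 dpc range, and the gene was not called (log2 fold change 0.98, SE 0.35, edgeR adjusted p = 0.0807). *Hba-a1*, an adult alpha chain gene (chr11:32283511-32284465, plus strand), had 4579.6, 4465 and 4308 normalised counts at 13.5 dpc and 11073, 4045 and 6487 at 15.5 dpc. *Hba-a2*, its near-identical copy (chr11:32296489-32297298), had 2337, 2221 and 2089 at 13.5 dpc and 6383, 2201 and 3358 at 15.5 dpc. Replicate 2 at 15.5 dpc lay below the 13.5 dpc samples for *Hba-a1* and among them for *Hba-a2*, and neither gene was called, at log2 fold changes of 0.69 (SE 0.32, edgeR adjusted p = 0.152) and 0.84 (SE 0.34, edgeR adjusted p = 0.114).

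**Figure D2:**
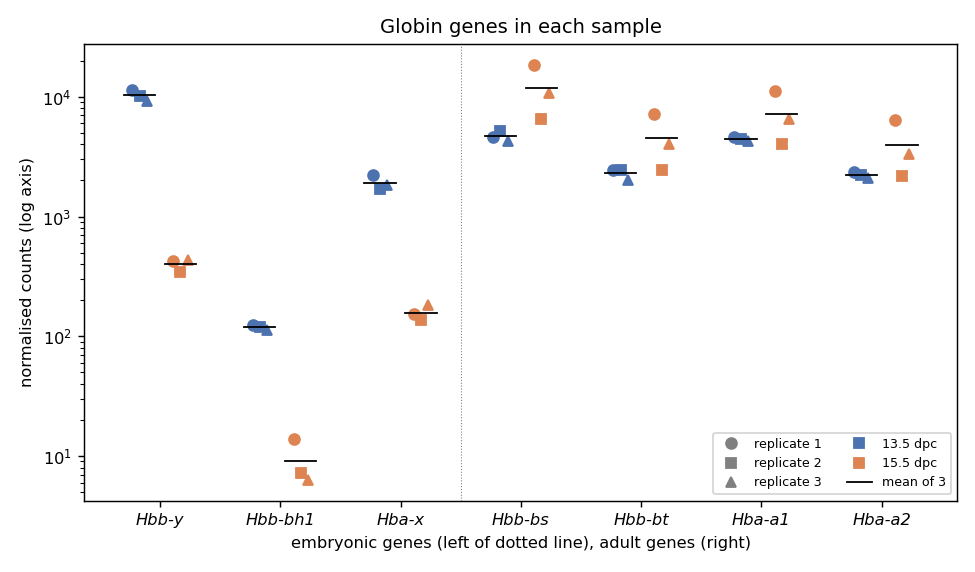
Normalised counts (log axis) of the 3 embryonic and 4 adult globin genes in each sample, with circles, squares and triangles for replicates 1, 2 and 3, blue for 13.5 dpc, orange for 15.5 dpc and a bar at the mean of 3. The embryonic genes separate by stage in every sample, whereas the adult genes at 15.5 dpc spread from replicate 2 at the bottom to replicate 1 at the top.

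The 15.5 dpc samples ranked alike for all 4 adult genes, with replicate 1 highest and replicate 2 lowest, an order that 35.8% of all genes tested had and that is not particular to red cell genes. Replicate 1 held 2.10 to 2.30 times the mean of replicates 2 and 3, while its ratio was 1.10 for *Hbb-y* and 0.965 for *Hba-x*. For *Hbb-bh1*, on 5 to 10 raw counts, the ratio was 2.06. The coefficient of variation of the adult genes was 49.5% to 54.2% at 15.5 dpc against 3.06% to 10.8% at 13.5 dpc. For *Hbb-y* the highest sample of a stage was 1.25 times the lowest at 15.5 dpc and 1.24 times at 13.5 dpc. Over the 15578 genes tested, the log2 ratio of replicate 1 to the mean of the other 2 samples at 15.5 dpc had a Spearman rho of -0.565 with exon length, and the adult globins have 667 to 863 bases of exon. The embryonic globins, with 614 to 938 bases, are as short. The log2 fold change between the stages had a Spearman rho of -0.358 with exon length over the same genes. With a length trend removed from each library, *Hbb-bs* was still called, at a log2 fold change of 0.97 (edgeR adjusted p = 0.0074). In that setting *Hbb-bt* came down to 0.57, *Hba-a1* to 0.31 and *Hba-a2* to 0.42, none of them called. Without replicate 1 at 15.5 dpc the fold changes came down to 0.89 for *Hbb-bs*, 0.49 for *Hbb-bt*, 0.24 for *Hba-a1* and 0.33 for *Hba-a2*, and *Hbb-bs* alone of the 4 was called (edgeR adjusted p = 0.0068). Without replicate 2 at 15.5 dpc all 4 were called, at 0.99 to 1.66. *Hbb-bs* lost its call without replicate 1, 2 or 3 at 13.5 dpc or replicate 3 at 15.5 dpc (edgeR adjusted p = 0.107, 0.09, 0.115 and 0.0796), although its log2 fold change there was 1.30 to 1.42. Calls over all genes in these 4 settings fell from 3467 to between 1235 and 1438.

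Since shares within a sample do not depend on how libraries are scaled, the globin counts were also read as a composition. The embryonic genes *Hbb-y* and *Hbb-bh1* made up 62.4% of the beta-type counts in replicate 1 at 13.5 dpc (12760 of 20465 counts), 57.4% in replicate 2 and 59.6% in replicate 3. At 15.5 dpc they made up 1.68% in replicate 1 (317 of 18884 counts), 3.79% in replicate 2 and 2.85% in replicate 3. The exact 95% confidence intervals, by the Clopper-Pearson method and for counting error only, ran from 56.7% to 63.0% over the earlier samples and from 1.5% to 4.21% over the later ones. The stage means were 59.8% ± 2.49 and 2.77% ± 1.06 (SD, n = 3). *Hba-x* made up 24.3%, 20.4% and 22.1% of the alpha-type counts at 13.5 dpc and 0.872%, 2.15% and 1.81% at 15.5 dpc, with means of 22.3% ± 1.98 and 1.61% ± 0.66 (SD, n = 3). In both families the stages lay far apart, and within 15.5 dpc the sample richest in adult globin counts, replicate 1, had the lowest embryonic share. The embryonic beta-type counts at 15.5 dpc were alike (317, 344 and 347), so that order mostly restates the adult counts, which are part of the denominator.

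**Figure D3:**
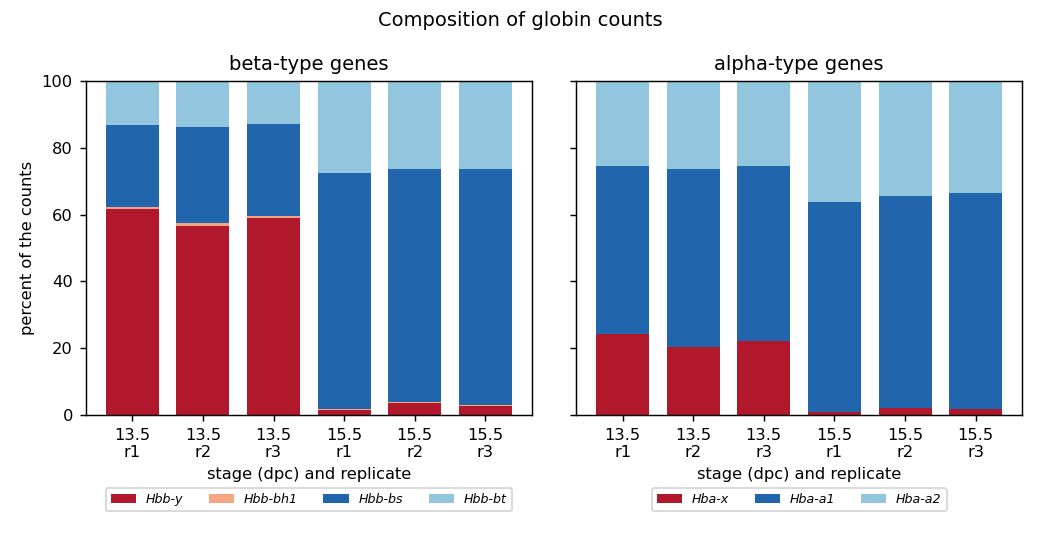
Percent of the beta-type globin counts (left) and of the alpha-type globin counts (right) that fell on each gene, 1 bar per sample. The embryonic genes (red, with *Hbb-bh1* in a lighter shade) hold 57.4% to 62.4% of the beta-type counts at 13.5 dpc and 1.68% to 3.79% at 15.5 dpc, and the adult genes (blues) hold the rest.

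These shares are of counted reads, and the counting treats the genes unequally. Only uniquely aligned reads were counted, and of the 50-base windows of their transcripts *Hbb-bs* shares 53.2% and *Hbb-bt* 58.3% with each other, while *Hba-a1* shares 72.3% and *Hba-a2* 89.3%. *Hbb-y*, *Hbb-bh1* and *Hba-x* share none. The counts of the adult genes therefore rest on the unshared part of each transcript, which differs in size between the members of a pair. The window length of 50 bases was a setting chosen here and may differ from the length of the reads. All values per window depend on it. When counts were divided by the number of unshared windows, an alternative added after seeing the data, the embryonic beta share was 44.3% ± 2.49 at 13.5 dpc and 1.52% ± 0.587 at 15.5 dpc, and the alpha share was 3.80% ± 0.404 and 0.220% ± 0.0924 (SD, n = 3). The level of the shares moved, and the order of the stages did not.

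The log2 ratio of *Hbb-y* to *Hbb-bs* counts was 1.33, 0.98 and 1.10 at 13.5 dpc and -5.45, -4.23 and -4.65 at 15.5 dpc, so *Hbb-y* led in every 13.5 dpc sample and *Hbb-bs* in every 15.5 dpc sample. The ratio was 60.3-fold lower at 15.5 dpc, with p = 0.1 in an exact two-sided permutation test, the smallest p that 3 against 3 samples allow. The log2 ratio of *Hba-x* to *Hba-a1* was -1.04, -1.38 and -1.24 at 13.5 dpc and -6.17, -4.88 and -5.16 at 15.5 dpc, 18.2-fold lower with the same exact permutation p = 0.1. Here the adult gene led at both stages. With the other adult gene of each pair in its place the ratios were 46.4-fold and 19.9-fold lower.

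Per kilobase of exon, *Hbb-y* had the highest level of the globin genes in each 13.5 dpc sample (15575 ± 1714 normalised counts per kilobase, SD, n = 3). *Hba-a1* (5482 ± 168) and *Hbb-bs* (5418 ± 493) followed, and these neighbours changed places between samples, as did *Hba-a2* (3322 ± 186) and *Hbb-bt* (3292 ± 355). *Hba-x* (2045 ± 289) and *Hbb-bh1* (194 ± 9.83) were lowest. At 15.5 dpc all samples gave 1 order, *Hbb-bs* (13840.4 ± 7072), *Hba-a1* (8869 ± 4394), *Hbb-bt* (6491 ± 3412), *Hba-a2* (5968 ± 3237), *Hbb-y* (605 ± 72.8), *Hba-x* (168 ± 23.9) and *Hbb-bh1* (14.8 ± 6.72). The adult genes overlapped in level across samples at 15.5 dpc, since the spread between replicates was wider than the steps between neighbours. These orders depend on the unique counting. Per unshared window, a unit added after seeing the data, *Hba-a2* had the highest level in every sample of both stages. At 13.5 dpc *Hba-a1* and then *Hbb-y* followed, the latter with 15.8 to 19.7 normalised counts per window against 31.6 to 35.4 for *Hba-a2*, and at 15.5 dpc the embryonic genes were again the lowest. In sum, the 7 genes took 0.236%, 0.224% and 0.203% of all counts at 13.5 dpc and 0.293%, 0.123% and 0.191% at 15.5 dpc, so the stages overlapped in total globin counts while they differed in which genes made them up. The alpha-type genes held 32.0% to 34.3% of all globin counts at 13.5 dpc and 39.5% to 40.8% at 15.5 dpc. Within the adult beta pair the *Hbb-bs* share was 65.1% to 68.0% at 13.5 dpc and 72.1% to 72.8% at 15.5 dpc, and within the adult alpha pair the *Hba-a1* share was 66.2% to 67.3%, later 63.4% to 65.9%. Both shares rest on unequal unshared parts of the transcripts.

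The promoters of an embryonic and an adult gene of each cluster are shown because these genes moved in unlike ways while lying in 1 cluster. The sequences are from RefSeq (GRCm38.p6) and run 5′ to 3′ on the gene's strand from 120 bases before to 30 bases after the annotated start, at chr7:103853178-103853327 (minus strand) for *Hbb-y*, chr7:103827899-103828048 (minus strand) for *Hbb-bs*, chr11:32276480-32276629 (plus strand) for *Hba-x* and chr11:32283552-32283701 (plus strand) for *Hba-a1*. Capitals mark exact matches, on either strand, to CCACACCC (the CACC box of the beta globin promoter, to which Klf1 binds), the motif AGATAA of erythroid factors such as Gata1, its variant form TGATAA, and the Nfe2 motif TGAGTCA. They also mark CCAAT (the motif of that name), the TATA box TATAAA and the related motif ATAAAA.
Hbb-y: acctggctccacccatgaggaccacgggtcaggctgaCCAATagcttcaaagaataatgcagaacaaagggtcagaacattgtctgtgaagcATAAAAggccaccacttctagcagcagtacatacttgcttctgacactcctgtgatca
Hbb-bs: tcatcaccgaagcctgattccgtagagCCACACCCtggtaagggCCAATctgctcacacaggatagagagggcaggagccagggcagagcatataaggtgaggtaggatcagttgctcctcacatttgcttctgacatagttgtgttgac
Hba-x: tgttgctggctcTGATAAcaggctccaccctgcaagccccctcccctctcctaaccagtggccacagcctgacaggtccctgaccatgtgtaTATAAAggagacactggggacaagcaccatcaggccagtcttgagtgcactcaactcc
Hba-a1: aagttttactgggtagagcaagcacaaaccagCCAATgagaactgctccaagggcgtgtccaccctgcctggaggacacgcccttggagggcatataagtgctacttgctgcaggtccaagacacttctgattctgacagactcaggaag
In *Hbb-y* a CCAAT lies 83 bases and an ATAAAA 28 bases upstream of the start. In *Hbb-bs* a CCACACCC lies 93 bases and a CCAAT 76 bases upstream. In *Hba-x* a TGATAA lies 108 bases and a TATAAA 28 bases upstream, and in *Hba-a1* a CCAAT lies 88 bases upstream. A match is a description of letters and no measure of binding.

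RefSeq promoter windows, from 250 bases before to 50 bases after a start, were found for 29 of the matched genes, and matches beyond the stretches printed above count too. There are 35 windows because some genes have several starts. CCACACCC was in 3.56% of all 32851 promoter windows and, among the listed genes, in *Hbb-bs* only. AGATAA was in 11.2% of all windows and in 10 of the 35 listed windows (10 genes). TGATAA was in 9.05% of all and in 10 of the 35 (10 genes). One or both of these GATA motifs were in 18 of the 35 listed windows (51.4%) and in 18.6% of all windows. The pair occurred in the windows of *Cpox* and *Kel*. TGAGTCA was in 5.2% of all windows and in 3 of the 35, those of *Hbb-bs*, *Kel* and *Trim10*. CCAAT was in 37.4% of all windows and in 20 of the 35 (18 genes), and TATAAA in 13.6% and in 5 of the 35 (5 genes). ATAAAA, which can overlap the TATA box motif by all but 1 of its bases, was in 18.5% and in 6 of the 35 (5 genes). The aligned windows of *Hba-a1* and *Hba-a2* were 98.0% identical and those of *Hbb-bs* and *Hbb-bt* 71.3%, while *Hbb-y* and *Hbb-bs* were 51.4% identical and *Hba-x* and *Hba-a1* 49.8%.

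Of the 9 genes of heme synthesis and iron supply, 2 rose, *Alas2* and *Cpox*, where 11.6% of all genes tested were called higher. None of the 9 was called lower, against 10.7% of all genes tested. Most of these enzymes serve every cell that makes heme, whereas *Alas2* encodes the red cell form of the enzyme that starts the pathway. *Alas2* had 309, 332 and 274 normalised counts at 13.5 dpc and 693, 421 and 569 at 15.5 dpc. The stages did not overlap, and the level was 1.84-fold higher (log2 fold change 0.88, SE 0.19, edgeR adjusted p = 0.0165), with replicate 1 at 15.5 dpc highest and replicate 2 lowest. The call was lost without replicate 1, 2 or 3 at 13.5 dpc or replicate 3 at 15.5 dpc (edgeR adjusted p = 0.072, 0.0563, 0.0807 and 0.067), where the log2 fold change was 0.80 to 0.94. *Cpox*, coproporphyrinogen oxidase, had 696, 622 and 699 normalised counts at 13.5 dpc and 1603, 1614 and 1566 at 15.5 dpc. Its 15.5 dpc samples lay close together and far above the earlier stage (2.37-fold, log2 fold change 1.25, SE 0.090, edgeR adjusted p = 0.000472).

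The other 7 genes of the class were not called. *Alad*, *Uros* and *Urod*, whose enzymes make the building block of the porphyrin ring, close the ring and trim its side chains, overlapped between stages and had log2 fold changes of 0.14, 0.39 and 0.25, none called. *Alad* had 930.3, 916 and 862 normalised counts at 13.5 dpc and 1305, 802 and 889 at 15.5 dpc. Replicate 1 at 15.5 dpc held 1.54 times the mean of the other 15.5 dpc samples for *Alad*, 1.62 times for *Uros* and 1.39 times for *Urod*. *Ppox*, the enzyme after *Cpox*, had 633, 673 and 689.6 normalised counts at 13.5 dpc and 606, 598 and 550.3 at 15.5 dpc. It was the member of the class whose 15.5 dpc samples all lay below, at a log2 fold change of -0.19 (SE 0.092, edgeR adjusted p = 0.176). *Fech*, ferrochelatase, which inserts the iron, had 549, 628 and 558 normalised counts at 13.5 dpc and 645, 633 and 695 at 15.5 dpc, with no overlap but no call (log2 fold change 0.19, edgeR adjusted p = 0.203). *Slc25a37*, the mitochondrial iron importer mitoferrin, had 497, 516 and 504 normalised counts at 13.5 dpc and 616, 650.4 and 594 at 15.5 dpc. The stages stood apart, and its adjusted p lay just above the threshold (log2 fold change 0.30, SE 0.088, edgeR adjusted p = 0.0508). *Tfrc*, the transferrin receptor that brings iron into cells, had 1891, 1972 and 1976 normalised counts at 13.5 dpc and 2029, 2439.9 and 2220.0 at 15.5 dpc. Its log2 fold change was 0.20 (edgeR adjusted p = 0.176), and like *Fech* and *Alad* it fell below 0 when counts were scaled by library size only.

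Of the 9 genes of the red cell membrane and its skeleton 8 were tested, and 4 of these fell, *Slc4a1*, *Epb42*, *Add2* and *Ermap*. The other 4 were not called, where 10.7% of all genes tested were called lower. Log2 fold changes ran from -1.76 to -0.04 over the class. *Slc4a1*, the band 3 anion exchanger, had 266, 213 and 215 normalised counts at 13.5 dpc and 139.8, 153 and 139 at 15.5 dpc. *Epb42*, protein 4.2, which binds band 3 to the skeleton, had 121, 135 and 115 at 13.5 dpc and 27.7, 54.2 and 70.5 at 15.5 dpc. Neither gene overlapped between stages, at log2 fold changes of -0.68 (SE 0.14, edgeR adjusted p = 0.0133) and -1.27 (SE 0.28, edgeR adjusted p = 0.0189). *Add2*, beta adducin of the skeleton, had 51.0, 50.6 and 43.1 normalised counts at 13.5 dpc and 15.2, 30.7 and 23.9 at 15.5 dpc. *Ermap*, an erythroid membrane protein that carries a blood group antigen, had 57.4, 22.3 and 31.6 at 13.5 dpc and 12.5, 15.3 and 3.78 at 15.5 dpc. Both were lower in every 15.5 dpc sample, at log2 fold changes of -1.01 (SE 0.25, edgeR adjusted p = 0.028) and -1.76 (SE 0.52, edgeR adjusted p = 0.0476). *Kel*, the Kell blood group protease, had 25.5, 35.2 and 26.6 normalised counts at 13.5 dpc and 22.1, 12.3 and 15.1 at 15.5 dpc. It did not overlap but was not called (log2 fold change -0.84, SE 0.28, edgeR adjusted p = 0.069). Spectrin beta (*Sptb*, -0.43), the Rh protein gene *Rhd* (-0.13) and ankyrin (*Ank1*, -0.04) overlapped between stages. *Ank1* was at 0.27 with the length trend removed, and *Rhd* at 0.30 without replicate 2 at 15.5 dpc.

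In replicate 1 at 15.5 dpc, the sample highest in adult globins, *Epb42* and *Add2* were lowest, at 0.444 and 0.558 times the mean of the other 15.5 dpc samples, while *Kel* (1.62), *Rhd* (1.42) and *Ermap* (1.30) were above it. With the length trend removed, *Slc4a1*, *Epb42*, *Add2* and *Ermap* were all still called, and the class median was -0.73. Without replicate 1 at 15.5 dpc *Epb42* and *Add2* were still called, *Epb42* at -0.998 (edgeR adjusted p = 0.003), and *Kel* was called too (edgeR adjusted p = 0.0265). *Epb42* lost its call without replicate 1, 2 or 3 at 13.5 dpc (edgeR adjusted p = 0.0721, 0.0792 and 0.0671), where its log2 fold change was -1.33 to -1.21. *Add2* and *Ermap* lost theirs without each of these or replicate 3 at 15.5 dpc, at edgeR adjusted p-values of 0.0764 to 0.105 and 0.0591 to 0.138. Their log2 fold changes there were -1.10 to -0.98 and -2.03 to -1.33. *Slc4a1* lost its call without replicate 1 at 13.5 dpc or replicate 3 at 15.5 dpc (edgeR adjusted p = 0.0659 and 0.0669), at log2 fold changes of -0.57 and -0.65.

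**Figure D4:**
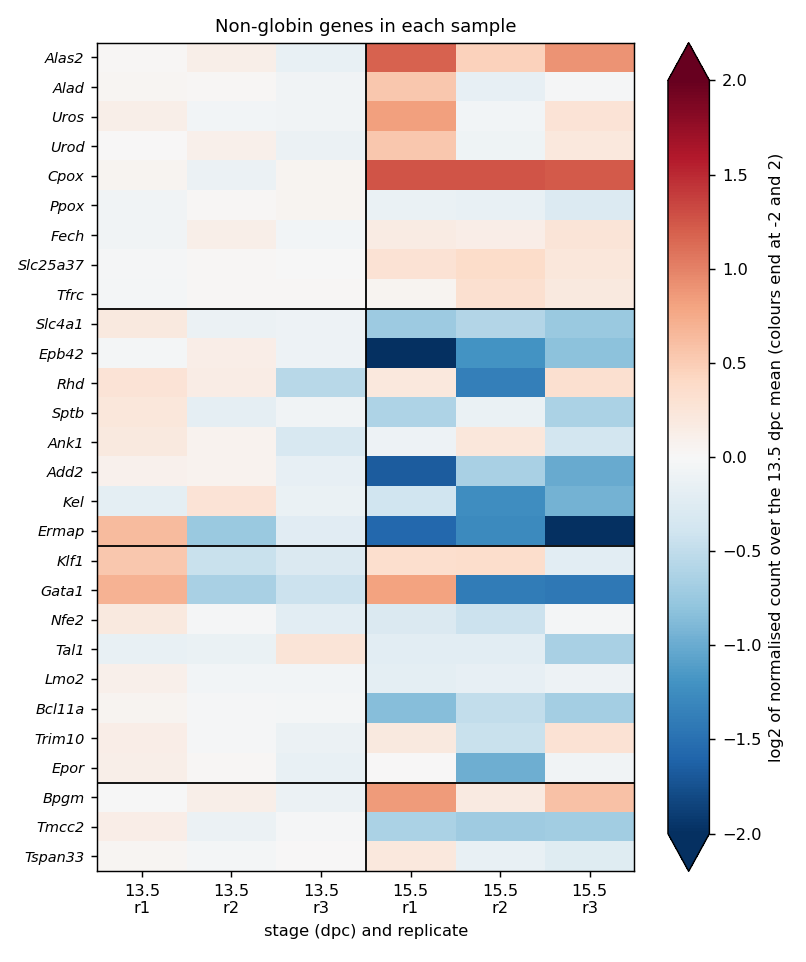
Log2 of the normalised count over the mean of the 13.5 dpc samples (colour, ends at -2 and 2) for the 28 tested genes other than globins in each sample, with lines between the classes and the stages. *Cpox* and *Alas2* are red and the membrane genes *Slc4a1*, *Epb42*, *Add2* and *Ermap* blue in every 15.5 dpc sample, while *Gata1* and *Rhd* differ between samples of 1 stage.

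Of the 8 erythroid regulators, *Epor* included, *Bcl11a* fell and the other 7 were not called, where 10.7% of all genes tested were called lower. *Bcl11a*, a zinc finger repressor of embryonic and fetal globin genes that is also expressed outside red cells, had 465, 439.8 and 434 normalised counts at 13.5 dpc and 248, 317 and 279.5 at 15.5 dpc. All 15.5 dpc samples lay below, at a log2 fold change of -0.66 (SE 0.12, edgeR adjusted p = 0.00879). The call was lost without replicate 1 at 13.5 dpc, without replicate 3 at 15.5 dpc and with the length trend removed (edgeR adjusted p = 0.0541, 0.0505 and 0.0788). The log2 fold change in these settings was -0.63, -0.66 and -0.32, for a gene of 13175 exon bases. *Tal1*, which with *Lmo2* forms part of the core erythroid transcription complex, had 84.7, 85.7 and 113 normalised counts at 13.5 dpc and 81.7, 81.8 and 60.4 at 15.5 dpc. *Lmo2* had 292, 262 and 264 at 13.5 dpc and 238, 244 and 256 at 15.5 dpc. In both genes the later samples all lay below, by small steps that were not called (log2 fold changes -0.34 and -0.15, edgeR adjusted p = 0.222 and 0.318). The erythroid factors *Klf1* (log2 fold change 0.20), *Gata1* (-0.32) and *Nfe2* (-0.24), the ring finger gene *Trim10* (0.03) and the erythropoietin receptor gene *Epor* (-0.31) overlapped between stages. *Klf1*, the activator of adult beta globin, had 12.9 to 25.5 normalised counts at 13.5 dpc and 15.1 to 22.5 at 15.5 dpc. *Gata1* had 8.57 to 21.9 at 13.5 dpc and 5.04 to 23.5 at 15.5 dpc.

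Among the other red cell genes *Tmcc2* fell. It encodes a coiled-coil transmembrane protein and had 492, 411 and 437 normalised counts at 13.5 dpc and 289, 272 and 276 at 15.5 dpc, with no overlap (log2 fold change -0.68, SE 0.11, edgeR adjusted p = 0.00568). *Bpgm*, the enzyme that makes bisphosphoglycerate, which lowers the oxygen affinity of hemoglobin, had 507, 553 and 467 normalised counts at 13.5 dpc and 916, 575 and 766 at 15.5 dpc. Its stages did not overlap, but it was not called (log2 fold change 0.56, SE 0.17, edgeR adjusted p = 0.0554). The tetraspanin gene *Tspan33* overlapped between stages (-0.05). The carbonic anhydrase gene *Car1*, with 0 to 2 raw counts per sample, and the Rh-associated glycoprotein gene *Rhag*, with 3 to 19, were below the filter on low counts.

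**Figure D5:**
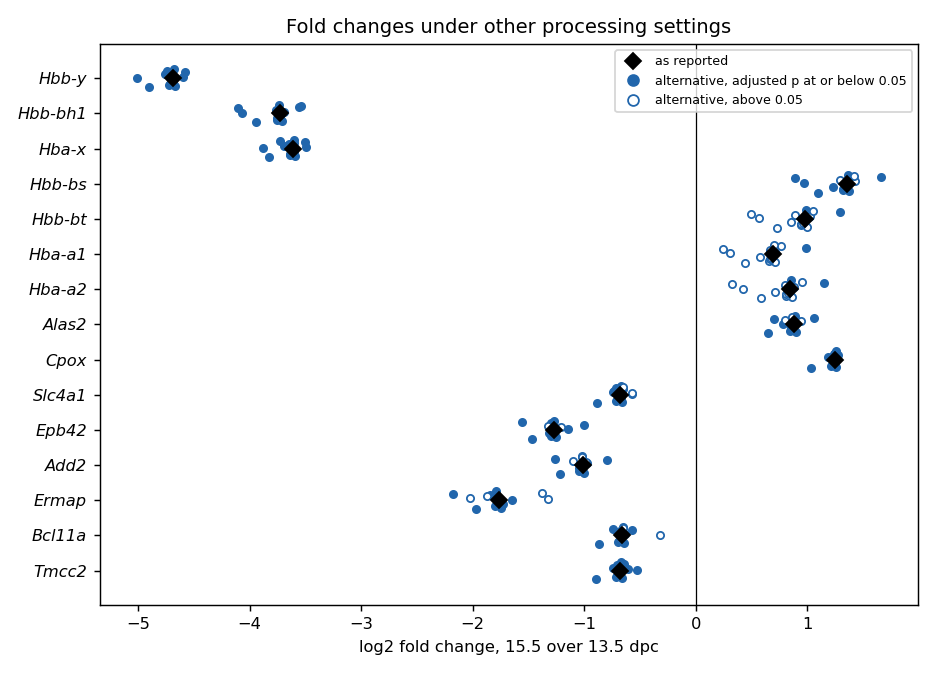
Log2 fold change (x axis, 15.5 over 13.5 dpc) of the 7 globin genes and of the called non-globin genes as reported (diamonds) and under each alternative setting (circles, filled where called by the test of that setting). *Hbb-y*, *Hbb-bh1*, *Hba-x*, *Cpox* and *Tmcc2* were called by the adjusted p under every setting in which they were tested, and no gene shown changed sign.

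Further genes of the same pathways were taken from lists of globin, heme, membrane, regulator and enzyme genes and counted in the same test, in which 22.3% of all genes were called, 11.6% as higher and 10.7% as lower. Of 6 other globin genes, *Hbb-bh2* had 0 counts in every sample, *Hbq1a* and *Hbq1b* had 0 to 4, and only cytoglobin, *Cygb*, was tested and was not called. Of 22 other heme and iron genes, all tested, 3 rose and none was called lower, with a median log2 fold change of 0.22. They were the mitochondrial carriers *Slc25a38* (0.62, edgeR adjusted p = 0.0439) and *Slc25a28* (0.71, edgeR adjusted p = 0.0291) and the iron transporter *Slc11a2* (0.94, edgeR adjusted p = 0.00123). Of 15 tested membrane and skeleton genes outside the 38, 2 rose and 2 fell, with a median of -0.08. The water channel *Aqp1* (0.57) and basigin, *Bsg* (0.59), rose, and glycophorin C, *Gypc* (-0.74), and the urea transporter *Slc14a1* (-1.75) fell. Of 20 tested regulators 3 rose, *Zfpm1* (0.41), *E2f2* (0.47) and *Cbfa2t3* (0.76), and *Runx1* fell (-1.27), with a median of 0.00. Of 13 tested enzymes and maturation genes, catalase, *Cat* (0.52), and *Fam210b* (0.65) rose and none was called lower, with a median of 0.07. Many of these genes are active in other cells of the organ too.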

How the data were processed

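The samples were 3 pools of wt pancreata at 13.5 dpc and 3 at 15.5 dpc. The authors enriched poly(A) RNA, made strand-specific libraries, aligned single-end reads to mm10 with GSNAP and deposited raw counts of uniquely aligned reads per Ensembl gene, made with featureCounts 1.4.6 per the submitters' processing notes. Whether counting used the strand is not given in the sources used here. Reads shared by near-identical genes, such as the adult globin pairs, are lost by such counting.

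Identifiers were matched by symbol and GENCODE annotation of mm10, and 35449 of 37224 had a symbol. Total counts were 10546028 to 16389237 per sample. Tests were run in edgeR 4.0.16 under R 4.3.3 (filterByExpr, TMM factors of 0.847 to 1.08, quasi-likelihood test, no covariates, Benjamini-Hochberg adjustment) and, as an alternative, DESeq2 1.42.0. The SE was derived from the log2 fold change and its F statistic, and normalised counts are scaled to a common effective library size. Exact tests and intervals were computed with SciPy 1.17.1, and promoter windows were aligned with Biopython 1.88 (match 1, mismatch -1, gap opening -3). In simulated data 190 of 200 changed genes were recovered over 15565 genes with 8 false calls. The simulation gave all genes the same dispersion and no length trend, so this recovery need not hold for the real samples.

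The members and all lists were chosen with earlier results of these data known. All globins, and every other member that was called or whose stages did not overlap, are given in every sample, and *Alad*, *Klf1* and *Gata1* were added after their values were seen. Genes of the other lists were to be named only if called, and the uncalled *Cygb*, *Pdx1*, *Pf4*, *Ttr*, *Alb* and the globin genes with few counts were added after their values were seen. Alternatives were other scalings, filters and thresholds, DESeq2, a replicate block, the 7 globins or genes above 1% of the counts taken out of scaling, removal of the lowess trend (span 0.5) of every library with exon length, other units for the shares, and each sample left out in turn. Results for some marker genes are not reported here.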

Additional observations from a re-analysis of the deposited data

How the results depend on the processing

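Of 557 comparisons of a gene under an alternative setting, 489 kept their direction and their side of the threshold, 24 lost a call, 22 won one, and 22 changed sign, none of these in a called gene. 9 of the 35 genes kept both throughout. The causes were not tested. 3 members were called higher, but 6 with the length trend removed, 7 with DESeq2 and 1 to 10 with 1 sample left out (5 without replicate 1 and 10 without replicate 2 at 15.5 dpc, and 1 without any other sample). 9 were called lower, but 4 under the thresholds of the study put on the edgeR results. With 1 sample left out, 4 to 10 were called lower (4 without replicate 1 at 13.5 dpc and 5 without replicate 3 at 15.5 dpc). Calls over all genes also moved, from 3467 to 5104 with the length trend removed, to 4094 with DESeq2, to 1235 without replicate 1 at 13.5 dpc and to 7620 without replicate 2 at 15.5 dpc. The fall of the embryonic beta share, 57.0 percentage points, was -61.0 per exon base and -42.8 per unshared window. For the alpha share, -20.7 became -17.5 and -3.58. The embryonic median of -3.73 was -3.94 with library size only, -4.16 with at least 10 counts in every sample, where *Hbb-bh1* was not tested, -4.07 with the length trend removed, and -4.11 to -3.55 with 1 sample left out. The adult globin median of 0.91 was 0.49 with the length trend removed and 0.41 to 1.22 with 1 sample left out, and the regulator median of -0.27 was -0.49 with library size only and -0.31 to -0.07 with 1 sample left out. The heme median of 0.25 was 0.019 with library size only and 0.37 with the length trend removed. The median of the other red cell genes, -0.05, was -0.27 with library size only, 0.077 with the length trend removed, -0.39 without a filter and -0.36 with DESeq2, where *Car1* enters, and -0.19 to 0.036 with 1 sample left out, 0.0087 without replicate 2 at 15.5 dpc.

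Signs changed in genes that were not called. With library size only, *Fech* was -0.027, *Klf1* -0.0081, *Tfrc* -0.0094, *Trim10* -0.18 and *Alad* -0.088. With the length trend removed, *Tspan33* was 0.077, *Ank1* 0.27, *Trim10* -0.066 and *Alad* -0.021. With 1 sample left out, *Gata1* ranged from -1.36 to 0.18, *Tspan33* from -0.19 to 0.036, *Ank1* from -0.21 to 0.089, *Trim10* from -0.11 to 0.27, *Alad* from -0.094 to 0.29 and *Rhd* from -0.42 to 0.30. *Slc25a37*, *Tfrc*, *Kel*, *Ppox*, *Bpgm*, *Hbb-bt*, *Hba-a1*, *Hba-a2*, *Uros*, *Urod* and *Sptb* each gained a call in 1 setting or more. With DESeq2, *Hbb-bt* (adjusted p = 0.0181), *Hba-a2* (adjusted p = 0.0463), *Bpgm* (adjusted p = 0.0215) and *Slc25a37* (adjusted p = 0.0324) were called.

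Samples of the same replicate number did not deviate together (correlations of 0.204, -0.202 and 0.03), so the numbers give no pairing. With the replicate block, 12 of the 12 called members remained called, 3 higher and 9 lower, while calls over all genes went from 3467 to 2676. Depth limits *Hbb-bh1* at 15.5 dpc, *Gata1*, *Klf1*, *Ermap*, *Rhag* and *Car1*, which rest on few counts.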

Other observations

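Markers of other cells that blood, neighbouring organs or the pancreas itself could bring were read in the same samples, and their part in the results above was not tested. Of all genes tested 11.6% were called higher and 10.7% lower. None of the marker genes had 0 counts in all samples. Of 10 megakaryocyte and platelet markers, 6 passed the filter and 1 fell, the platelet basic protein gene *Ppbp* (log2 fold change -1.54, edgeR adjusted p = 0.0212). *Pf4*, platelet factor 4, had 131 to 150.3 normalised counts at 13.5 dpc and 92 to 232 at 15.5 dpc. The summed level of this list was 404 to 426 at 13.5 dpc and 352 to 520.4 at 15.5 dpc. Of 10 macrophage and leukocyte markers 2 fell, *Csf1r* (-0.45, edgeR adjusted p = 0.0293) and *Adgre1* (-0.64, edgeR adjusted p = 0.0272), which encode the receptor for colony stimulating factor and the F4/80 antigen, and the list summed to 2829 to 2958 and 2323 to 2865 normalised counts.

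Of 10 liver markers 3 fell, *Afp* (-0.66), *Fgb* (-1.24) and *Serpina1a* (-2.38), and none was called higher. The list summed to 6264 to 7018 normalised counts at 13.5 dpc and 5966 to 11077 at 15.5 dpc, of which *Ttr*, also a product of pancreatic endocrine cells, made up most, with 5007 to 5255 and 5022 to 9831. *Alb*, albumin, had 150.1 to 314 at 13.5 dpc and 65.5 to 208 at 15.5 dpc. Of the spleen mesenchyme markers, *Tlx1* (-1.22, edgeR adjusted p = 0.00573) and *Nkx3-2* (-1.70, edgeR adjusted p = 0.00161) fell. Of 10 endothelium markers 1 rose, *Esam* (0.46), and of 8 mesenchyme markers 2 rose and 2 fell. Of 8 epithelium markers 5 rose, from *Cdh1* (0.43) to *Krt18* (1.17).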
